A study of Mus musculus with 116 samples.

Results

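The lysosome genes described here are 45 mouse genes for the enzymes, membrane proteins, proton pump subunits and sorting receptors of the lysosome, taken from a list of gene symbols. Array probes were matched to them by symbol or older alias, and the probes of a symbol were averaged. In all, 44 of the 45 were measured, by 49 probes, out of 15097 symbols on the array. Atp6v0c, a membrane subunit of the proton pump, had no probe. The members are 10 proteases, 12 glycosidases and sulfatases, 7 genes of lipid handling, 6 membrane proteins, 5 measured proton pump genes and 4 sorting receptors and progranulin.

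The lysosome is the acidic compartment in which cells break down protein, sugar chains and lipid. Its enzymes are made in the endoplasmic reticulum and carried in by sorting receptors such as those for mannose 6-phosphate, and they work because a V-type ATPase pumps protons into the lumen. Macrophages and neutrophils use the compartment to digest what they engulf, and macrophages are rich in cathepsin S and in the lysosomal glycoprotein CD68.

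The cells were FDB1, a mouse myeloid line that needs added growth factor, and the 36 RNAs come from 18 conditions, each with a replicate 1 and a replicate 2. The parental line, kept in medium with IL-3 (500 U/mL) and serum (10%), was taken as it was (parental 0 hours) or washed and given GM-CSF (500 U/mL) for 6, 12, 24, 48 or 72 hours. Cells expressing the V449E receptor mutant and cells expressing the FI-Delta receptor mutant grew in that same IL-3 medium up to 0 hours, were washed, and then spent 6, 12, 24, 48 or 72 hours with no factor added. All 0-hour cells of the 3 lines had thus been kept in IL-3. Whether a mutant line was 1 clone or a pool, and whether replicates were separate cultures, is not given in the sources used here, so a p-value below reflects no more than the spread among these RNAs, which may be technical.

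Each RNA lay on 2-colour arrays with another RNA of the same replicate number, and the deposited values are ratios with no signal intensity. A level below is therefore a log2 value relative to the mean of all conditions of that replicate: it can be set against other conditions but not against another gene, and whether a gene or a cell-type marker was above background cannot be read from it. The direction of the ratios, Cy5 over Cy3, is likely but not stated. Differences are on the log2 scale (1 is a 2-fold change), with the standard error (SE) of a limma fit over all 15097 symbols and a Benjamini-Hochberg adjusted p over those symbols. A gene is said to have risen or fallen where that adjusted p was under 0.05. Each condition lay on 8 to 32 arrays, and the median SE of a difference was 0.089 over all symbols and 0.106 over the members. In a bulk RNA, fewer cells of a type and less RNA per cell cannot be told apart.

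The members varied more over the 18 conditions than most genes. Their median range, from the highest to the lowest condition mean, was 0.584, against 0.327 over all symbols. Psap, the precursor of the saposins that help degrade sphingolipids, had the widest range of the members (3.07, the 99.9th percentile of all symbols). Ctss, which encodes cathepsin S, spanned 2.13 and Cd68 1.61. At the other end, Ctsd, which encodes the aspartic protease cathepsin D, spanned 0.19 (10.8th percentile) and Ctsh, which encodes cathepsin H, 0.22 (18.4th percentile). Parental cells at 0 hours were the lowest condition for 16 of 44 members (36.4%), against 4.95% of all symbols.

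No member fell below its own line's 0 hours at any time in any line, over 15 comparisons and 44 members. In all, 9 members rose at 1 or more times in all 3 lines: Ctss, Ctsa, Psap, Lipa, Asah1, Cd68, Laptm5, Atp6v1b2 and Scarb2. Another 9 did so in 2 lines, namely Tpp1, Hexa, Npc1, Lamp1, Mcoln1, Atp6v0d1, Atp6ap1, Atp6v1a and Grn. Ctsb rose only in V449E cells, and Lgmn, Ids, Arsb and Ppt1 only in FI-Delta cells, by these calls; a call in 1 line and not in another does not show that the lines differ. The other 21 passed at no single time. How many of all symbols rose in 1, 2 or 3 lines, or never fell, was not counted, so these overlaps describe the members alone. An F test over all 5 times passed for 18 members in GM-CSF (40.9%, against 17.4% of all symbols), 8 in V449E cells (18.2% against 5.74%) and 21 in FI-Delta cells (47.7% against 15.7%). Some members that passed at no single time are among these. They are Gusb and Neu1 in GM-CSF, Idua in FI-Delta cells, and M6pr in V449E and FI-Delta cells.

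**Figure D1:**
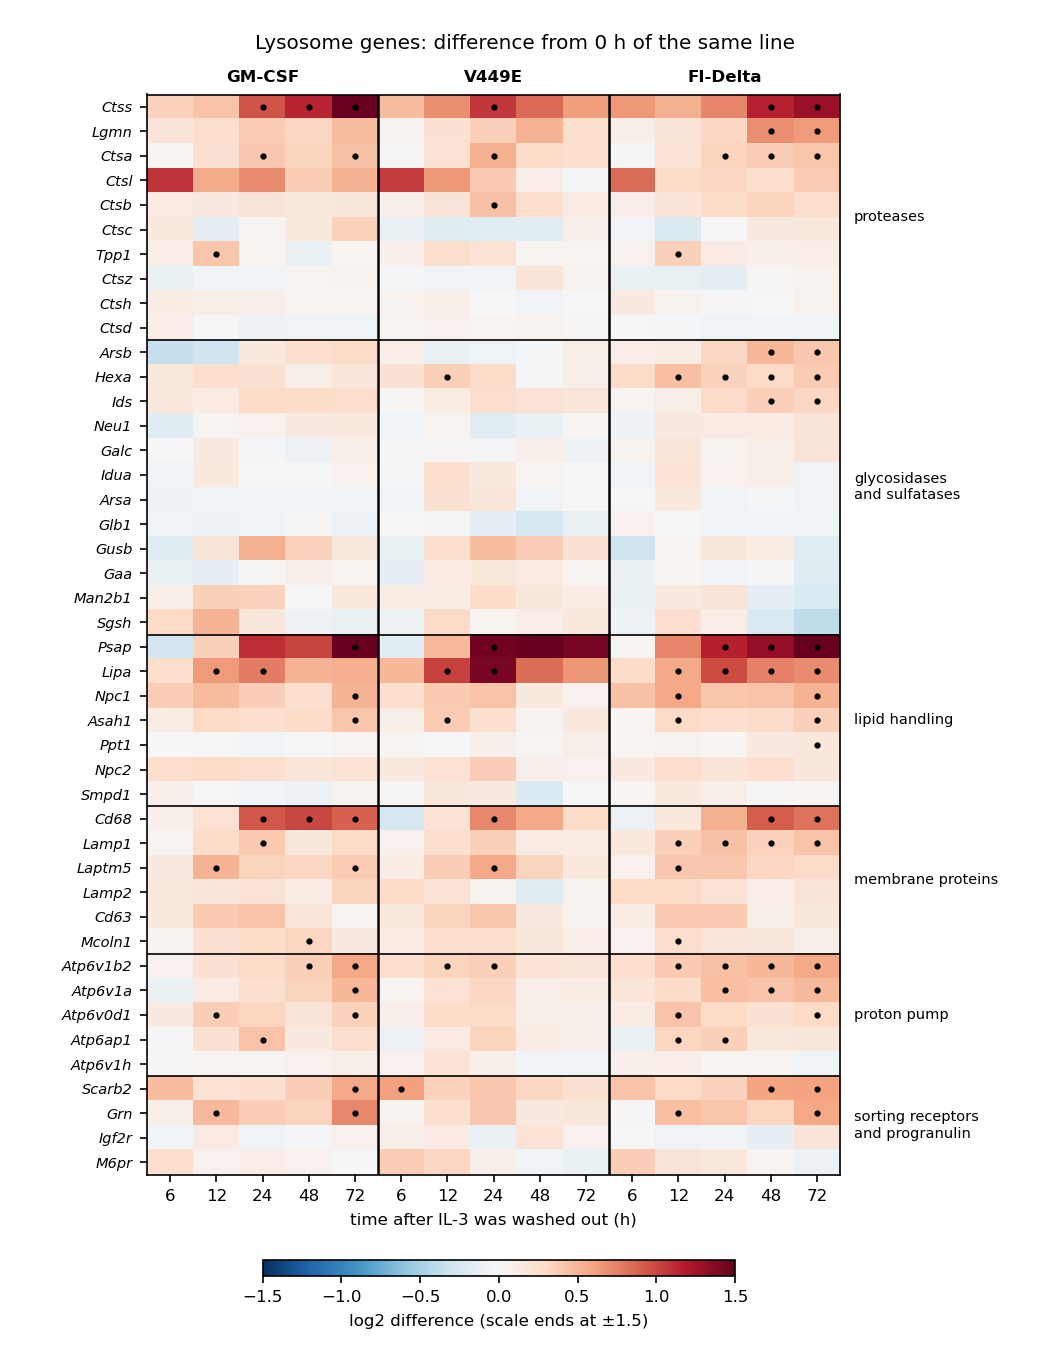
Log2 difference of each of the 44 measured lysosome genes (rows, grouped by role) from 0 hours of the same line at 6, 12, 24, 48 and 72 hours (columns) in GM-CSF, V449E and FI-Delta cells. Dots mark an adjusted p under 0.05: 18 members carry one at 72 hours in FI-Delta cells, 12 in GM-CSF and none in V449E cells, whose column with the most is 24 hours, with 8.

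In parental cells moved to GM-CSF, no member passed at 6 hours, when 0.590% of all symbols were called. Of all symbols 0.378% were called higher there. At 12 hours 5 members rose, while 3.85% of all symbols were called in either direction and 1.58% higher. There were 6 at 24 hours (1.46% and 1.12% of all symbols), 4 at 48 hours (1.58% and 0.980%) and 12 at 72 hours (7.23% and 3.82%). Symbols called higher at 72 hours numbered 576 and lower 515, while all 12 members went up. The median difference of the members at 72 hours was 0.198, with 40 of 44 above 0, and that of all symbols 0.003. The first to rise, at 12 hours, were Tpp1 (0.42, SE 0.09), a tripeptidyl peptidase, Lipa (0.64, SE 0.17), the acid lipase that frees cholesterol from its esters, Laptm5 (0.51, SE 0.11), Atp6v0d1 (0.37, SE 0.10) and Grn (0.49, SE 0.11). Tpp1 stood at 0.03 (SE 0.09) at 24 hours. Leaving out GM-CSF 72 hours replicate 1 reduced the 12 calls to 5, and leaving out parental 0 hours replicate 1 reduced them to 6.

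In FI-Delta cells left without factor, no member passed at 6 hours, when 1.22% of all symbols were called in either direction and 0.497% higher. At 12 hours 12 rose (6.79% of all symbols called, 2.45% higher), at 24 hours 8 (2.01% called, 1.30% higher), at 48 hours 13 (5.35% called, 3.04% higher) and by 72 hours 18 (18.5% called, 7.85% higher). At 72 hours 1185 symbols were called higher and 1608 lower, and all 18 members were higher. The members' median was 0.189 there, with 34 of 44 above 0, against -0.003 for all symbols. Hexa, a subunit of the hexosaminidase that trims gangliosides, was one of the early risers (0.45, SE 0.08, at 12 hours) and stayed called at every later time, at 0.34, 0.30 and 0.38. Lgmn, the asparaginyl endopeptidase legumain, passed only at 48 hours (0.69, SE 0.17) and 72 hours (0.64, SE 0.17). Leaving out replicate 1 of the FI-Delta 0-hour RNAs reduced the 18 calls to 7.

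V449E cells without factor had 1 call at 6 hours, of Scarb2, when 1.04% of all symbols were called in either direction and 0.570% higher. They had 4 at 12 hours (1.67% and 0.775% of all symbols) and 8 at 24 hours (1.50% and 0.828%), all higher. None passed at 48 hours (0.00662% of all symbols called) or 72 hours (0%). At 24 hours 125 symbols were called higher and 102 lower, and all 8 members were higher, with a median over the 44 of 0.272 (36 above 0) against 0.003 for all symbols. The mean level of 20 of the 44 members was at its highest at 24 hours in these cells (45.5%, against 17.9% of all symbols), and of 2 at 72 hours. In GM-CSF 17 members were highest at 72 hours, and in FI-Delta cells 14 at 72 hours and 13 at 12 hours. The 8 calls at 24 hours rest on all 4 RNAs: they became 2 without V449E 24 hours replicate 1, 3 without its replicate 2, 1 without V449E 0 hours replicate 1 and 2 without its replicate 2. The call kept in each of these was that of Lipa.

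At 72 hours in V449E cells no symbol passed out of 15097, so the zero among members is that of the whole array in this comparison. At an unadjusted p under 0.05 were 5 members (11.4%, against 4.34% of all symbols), and a limma fit on the dye-swap pair means, which counts arrays of shared RNAs as independent, called 2. The members' median was 0.089, with 38 of 44 above 0. Set against 24 hours directly, a contrast added after the values were seen, 34 of 44 members were lower at 72 hours in V449E cells, with a median of -0.166, and none passed (3 of all symbols did, 0.0199%). The lowest adjusted p there was 0.0741, of Lipa at -0.77 (SE 0.17). Between the same times 1 member rose in GM-CSF, Atp6v1b2 at 0.30 (SE 0.08, 4.15% of all symbols called), and none passed in FI-Delta cells (3.64%).

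**Figure D2:**
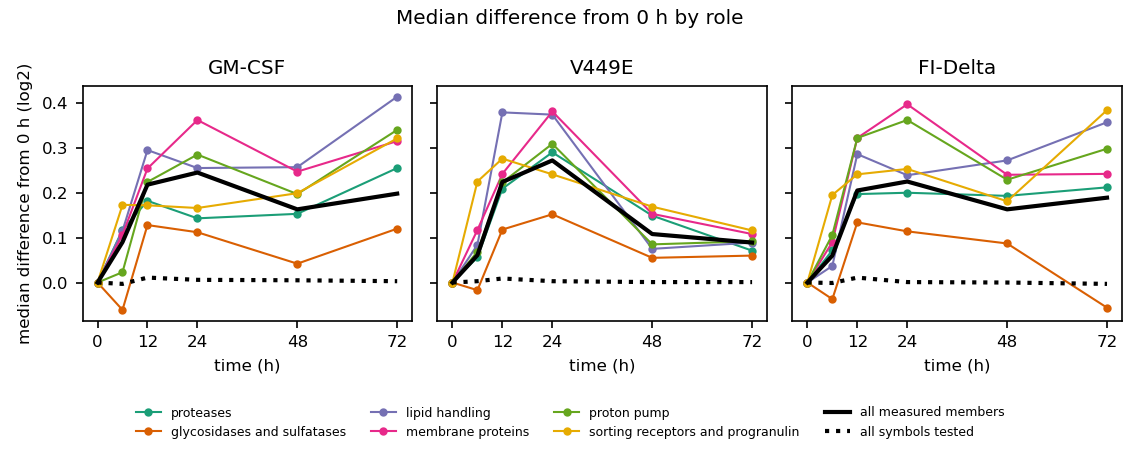
Median log2 difference from 0 hours (vertical axis) against time in hours for each role of the lysosome genes (coloured lines), all 44 members (thick line) and all 15097 symbols (dotted line), in 1 panel per line. In V449E cells the median of the members was 0.272 at 24 hours and 0.089 at 72 hours, and in GM-CSF and FI-Delta cells it was 0.198 and 0.189 at 72 hours.

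Among the 10 proteases 2 rose at 72 hours in GM-CSF and 3 in FI-Delta cells, and 3 rose at 24 hours in V449E cells. Of all symbols 3.82%, 7.85% and 0.828% were called higher in these 3 comparisons, which also serve for the other roles below. Ctss moved most of the proteases. Its levels in replicates 1 and 2 were -0.98 and -1.50 in parental cells at 0 hours and 0.26 and 0.34 after 72 hours in GM-CSF. In FI-Delta cells they were -0.44 and -0.37 at 0 hours and 0.74 and 1.04 at 72 hours, and in V449E cells -0.37 and -0.48 at 0 hours and 0.82 and 0.44 at 24 hours. The RNAs before and after did not overlap in any of the 3 lines. The rises were 1.54 (SE 0.21, adjusted p = 1.13e-04) in GM-CSF, 1.30 (SE 0.21, adjusted p = 2.00e-04) in FI-Delta cells and 1.06 (SE 0.21, adjusted p = 0.0171) in V449E cells. In V449E cells the call was lost without 24 hours replicate 1 (adjusted p = 0.198) and without either 0-hour RNA (adjusted p = 0.254 and 0.255).

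Ctsa, which encodes the protective protein cathepsin A that holds a glycosidase complex together, rose by 0.44 (SE 0.09) at 72 hours in GM-CSF and 0.41 (SE 0.09) in FI-Delta cells. In V449E cells its levels went from -0.14 and -0.12 at 0 hours to 0.47 and 0.33 at 24 hours, a rise of 0.53 (SE 0.09, adjusted p = 0.00411) that no longer passed without 24 hours replicate 1 or without 0 hours replicate 1. Lgmn in FI-Delta cells stood at -0.20 and 0.01 at 0 hours and at 0.47 and 0.62 at 72 hours, a difference of 0.64 (SE 0.17, adjusted p = 0.0108). The call was lost when the second 72-hour RNA was left out (adjusted p = 0.0953) and when the first 0-hour RNA was (adjusted p = 0.173). Ctsb, the cysteine protease cathepsin B, rose in V449E cells at 24 hours by 0.44 (SE 0.10, adjusted p = 0.0281).

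Other cathepsins did not pass anywhere. Ctsh, a protease with aminopeptidase activity, was at 0.05 (SE 0.07, adjusted p = 0.700) at 72 hours in FI-Delta cells, the smallest difference among the proteases there, and Ctsd was at -0.07 (SE 0.09) there and -0.06 (SE 0.09) in GM-CSF. Ctsl, which encodes cathepsin L, has a wide range but replicates that lie far apart. Its levels in parental cells at 0 hours were -0.30 and -1.44, and in V449E cells at 6 hours 0.26 and 1.29. No difference of Ctsl from 0 hours passed, with an SE of 0.36 against a median of 0.106 for the members.

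The 12 glycosidases and sulfatases had the lowest median of the 6 roles in each of these comparisons. None rose at 72 hours in GM-CSF or at 24 hours in V449E cells, and 3 rose at 72 hours in FI-Delta cells: Arsb, Hexa and Ids, the last being the iduronate sulfatase. Of all symbols 3.82%, 0.828% and 7.85% were called higher there. The absence of calls among 12 genes in GM-CSF and V449E cells thus lies near the shares of all symbols. The median of the group at 72 hours in FI-Delta cells was -0.056, with 7 of the 12 below 0. Arsb, the sulfatase that acts on dermatan sulfate, had levels of -0.28 and -0.07 at 0 hours and 0.13 and 0.33 at 72 hours in FI-Delta cells. The RNAs did not overlap, and the rise was 0.41 (SE 0.12, adjusted p = 0.0244). The call was lost with the arrays scaled to 1 spread (adjusted p = 0.111), when the second 72-hour RNA was left out (adjusted p = 0.211) and when the first 0-hour RNA was (adjusted p = 0.322). Its 3 probes lay at 0.42, 0.42 and 0.39. Idua, the iduronidase, was the nearest to 0 of the group (-0.05, SE 0.07). The 2 probes of Galc, the galactosylceramidase, gave 0.06 and 0.32 in the same comparison, and the second passed alone (adjusted p over probes 0.0462).

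Lipid handling held the member with the largest change, Psap. In GM-CSF 3 of its 7 genes rose by 72 hours and in FI-Delta cells 5, and in V449E cells 2 rose by 24 hours. Psap stood at -1.11 and -1.53 in parental cells at 0 hours, at -1.58 and -1.62 after 6 hours in GM-CSF, and at 1.10 and 0.41 after 72 hours. FI-Delta cells went from -0.54 and -0.12 at 0 hours to 1.13 and 1.82 at 72 hours. V449E cells went from -0.93 and -0.45 at 0 hours to 0.62 and 0.88 after 24 hours, and were still at 0.72 and 0.75 after 72 hours. In each line every late RNA lay above both 0-hour RNAs.

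The rise of Psap was 2.08 (SE 0.31, adjusted p = 2.01e-04), or 4.22-fold, at 72 hours in GM-CSF and 1.80 (SE 0.31, adjusted p = 2.98e-04), or 3.48-fold, in FI-Delta cells. In V449E cells it was 1.44 (SE 0.31, adjusted p = 0.0222) at 24 hours. At 72 hours it was 1.43 (SE 0.31) there and did not pass (adjusted p = 0.450). The limma p before adjustment was 1.04e-04 at 24 hours and 1.19e-04 at 72 hours, and the adjusted values differ because each depends on the p-values of all symbols in its comparison. The call at 24 hours was lost without any 1 of the 4 V449E RNAs (differences 1.10 to 1.88). Both Psap probes rose together, at 1.89 and 2.26 in GM-CSF and 1.87 and 1.73 in FI-Delta cells.

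Lipa followed another course. V449E cells held levels of -0.79 and -0.55 at 0 hours and 0.38 and 0.34 after 12 hours. They reached 0.70 and 0.82 after 24 hours and were back at 0.08 and -0.09 after 72 hours. FI-Delta cells started at -0.49 and -0.28, reached 0.41 and 0.79 after 24 hours and ended at 0.34 and 0.32. Parental cells started at -0.76 and -0.62, reached 0.11 and 0.03 after 24 hours of GM-CSF and ended at -0.01 and -0.28. The mean was highest at 24 hours in all 3 lines. The rise at 24 hours was 1.43 (SE 0.17, adjusted p = 1.52e-04) in V449E cells, 0.98 (SE 0.17, adjusted p = 0.00607) in FI-Delta cells and 0.77 (SE 0.17, adjusted p = 0.0206) in GM-CSF. At 72 hours Lipa was called in FI-Delta cells (0.71, SE 0.17, adjusted p = 0.00472), though not without FI-Delta 0 hours replicate 1 (adjusted p = 0.145).

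Npc1, the membrane protein that exports cholesterol from the lysosome, rose by 0.51 (SE 0.14) at 72 hours in GM-CSF and 0.53 (SE 0.14) in FI-Delta cells. Its partner Npc2 never passed (0.22 and 0.16, SE 0.11). Asah1, the acid ceramidase, rose by 0.41 (SE 0.09) and 0.36 (SE 0.09) in those comparisons. Smpd1, the acid sphingomyelinase, lay nearest to 0 of the group at 72 hours in FI-Delta cells (0.03, SE 0.10). Ppt1, a thioesterase that removes fatty acids from proteins, passed there at 0.17 (SE 0.06), but its 2 probes gave 0.30 and 0.05.

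**Figure D3:**
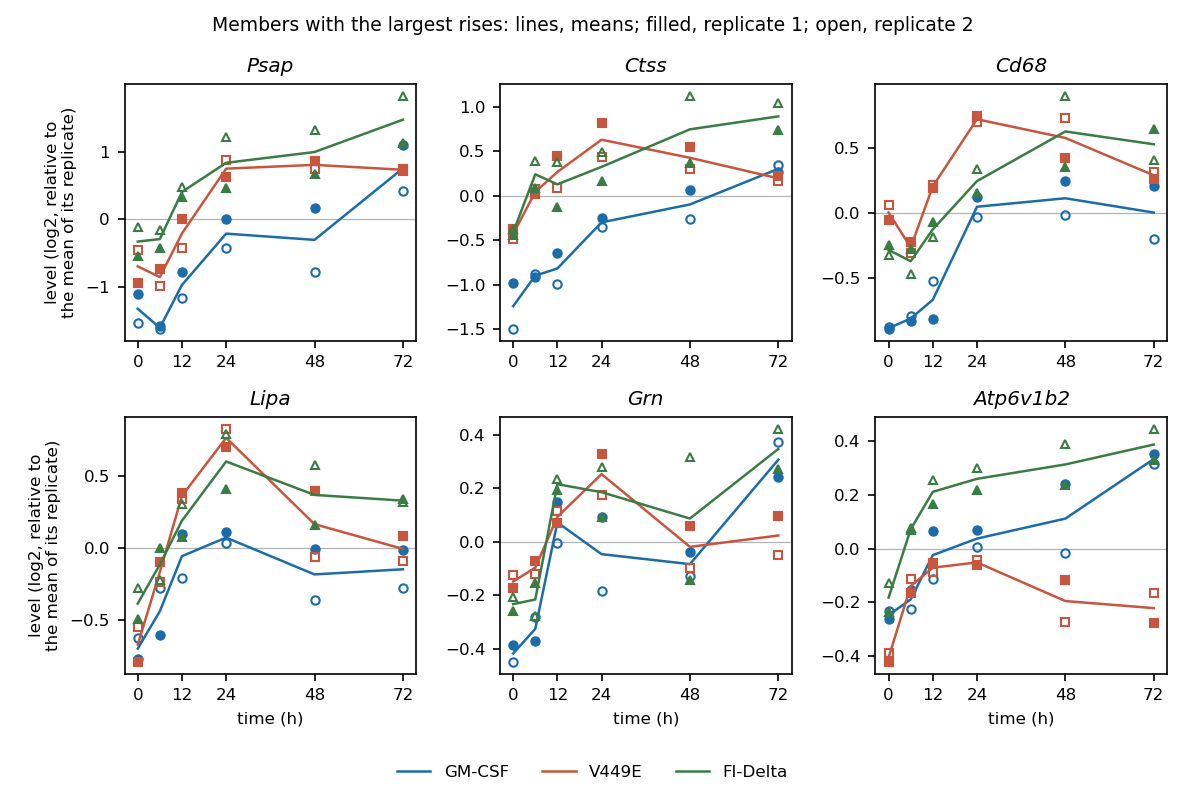
Levels (vertical axis, log2 relative to the mean of the replicate) against time in hours for 6 rising lysosome genes in GM-CSF, V449E and FI-Delta cells, with replicate 1 filled, replicate 2 open and lines through the means. Lipa is highest at 24 hours in all 3 lines, while Psap, Ctss and Atp6v1b2 are highest at 72 hours in GM-CSF and FI-Delta cells.

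Of the 6 membrane proteins 2 rose at 72 hours in each of GM-CSF (Cd68 and Laptm5) and FI-Delta cells (Cd68 and Lamp1), and 2 at 24 hours in V449E cells (Cd68 and Laptm5). Cd68 levels were -0.89 and -0.88 in parental cells at 0 hours and 0.21 and -0.20 after 72 hours in GM-CSF. In FI-Delta cells they were -0.24 and -0.32 at 0 hours and 0.65 and 0.41 at 72 hours, and in V449E cells -0.05 and 0.07 at 0 hours and 0.75 and 0.70 at 24 hours. Parental cells before the switch thus stood lowest, without overlap. The rises were 0.89 (SE 0.15, adjusted p = 6.08e-04), 0.81 (SE 0.15, adjusted p = 5.30e-04) and 0.72 (SE 0.15, adjusted p = 0.0196), and the last was lost without any 1 of the 4 V449E RNAs. Laptm5, a membrane protein of blood cell lysosomes, rose by 0.56 (SE 0.11, adjusted p = 0.0118) at 24 hours in V449E cells, a call lost without 24 hours replicate 2 or either 0-hour RNA.

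Lamp1, a major glycoprotein of the lysosomal membrane, had 1 gene probe, and 2 control spots on the array carry the same symbol and were left out. By the gene probe Lamp1 rose at 72 hours in FI-Delta cells by 0.43 (SE 0.09, adjusted p = 0.00244), from -0.23 and -0.11 to 0.23 and 0.28. The control spots went the other way there, by -0.17 and -0.18 in replicate 1 and -0.23 and -0.31 in replicate 2. With the 3 averaged, an alternative added after the values were seen, the difference was -0.005 (SE 0.07, adjusted p = 0.977), so the direction of Lamp1 depends on which spots are read. Lamp2, the other such glycoprotein, did not pass in any line (0.33, SE 0.11, adjusted p = 0.0688 in GM-CSF at 72 hours). Mcoln1, a calcium channel of the lysosomal membrane, passed at 48 hours in GM-CSF (0.32, SE 0.08) and at 12 hours in FI-Delta cells (0.26, SE 0.08), and stood at 0.09 (SE 0.08) at 72 hours in FI-Delta cells.

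The proton pump has a cytosolic part that splits ATP and a membrane part that carries protons. Of its 5 measured members 3 rose at 72 hours in GM-CSF and the same 3 in FI-Delta cells: Atp6v1b2 and Atp6v1a, which encode the B and A subunits of the cytosolic part, and Atp6v0d1, a subunit of the membrane part. Atp6v1b2 stood at -0.26 and -0.23 in parental cells at 0 hours and at 0.35 and 0.32 after 72 hours in GM-CSF, and at -0.24 and -0.13 in FI-Delta cells at 0 hours and 0.33 and 0.45 at 72 hours. The rises were 0.58 (SE 0.08, adjusted p = 1.25e-04) and 0.57 (SE 0.08, adjusted p = 5.16e-05). In V449E cells it went from -0.42 and -0.39 at 0 hours to -0.06 and -0.04 at 24 hours (0.35, SE 0.08, adjusted p = 0.0306) and stood at -0.28 and -0.17 at 72 hours. Atp6v1a rose by 0.49 (SE 0.10) in both GM-CSF and FI-Delta cells at 72 hours. Atp6v1h, a regulatory subunit, stayed near 0 (0.08 and -0.07, SE 0.11).

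Among the sorting genes, Scarb2 carries glucocerebrosidase to the lysosome, Igf2r and M6pr are receptors for mannose 6-phosphate, and Grn encodes progranulin, which is delivered to the lysosome and processed there. Grn rose at 72 hours in GM-CSF, from -0.39 and -0.45 to 0.24 and 0.37 (0.72, SE 0.11, adjusted p = 3.51e-04), and in FI-Delta cells, from -0.26 and -0.21 to 0.27 and 0.42 (0.58, SE 0.11, adjusted p = 9.48e-04). Scarb2 rose by 0.57 (SE 0.13, adjusted p = 0.0101) in GM-CSF, from -0.29 and -0.37 to 0.29 and 0.20. In FI-Delta cells it went from -0.34 and -0.15 to 0.23 and 0.48 (0.60, SE 0.13, adjusted p = 0.00292). Leaving out 1 RNA ended the Scarb2 call in GM-CSF for GM-CSF 72 hours replicate 1 and either parental RNA, and in FI-Delta cells for 72 hours replicate 2 and 0 hours replicate 1. In V449E cells Scarb2 passed only at 6 hours (0.62, SE 0.13, adjusted p = 0.0221). M6pr passed at no single time against 0 hours and was at -0.08 (SE 0.11) in FI-Delta cells at 72 hours. By the F test over the 5 times M6pr did pass in V449E cells (adjusted p = 0.0252) and FI-Delta cells (adjusted p = 0.0362).

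Igf2r did not change with time in any line by these tests and differed between the lines instead. Its levels over the 6 times ran from -0.78 to -0.36 in parental cells with and without GM-CSF, from -0.25 to 0.16 in FI-Delta cells and from 0.33 to 0.93 in V449E cells, so the 3 lines did not overlap at any time. At 0 hours, with all 3 lines in IL-3, the levels were -0.69 and -0.62 in parental, 0.06 and -0.11 in FI-Delta and 0.48 and 0.73 in V449E cells. V449E cells were above parental cells by 1.26 (SE 0.13, adjusted p = 8.48e-06, a 2.39-fold difference) and above FI-Delta cells by 0.63 (SE 0.13, adjusted p = 0.0227). FI-Delta cells were above parental cells by 0.63 (SE 0.13, adjusted p = 0.0482). Igf2r was the 1 member called between the mutant lines at 0, 6 and 12 hours, when 0.311%, 1.06% and 1.46% of all symbols were called. It was also the 1 member between FI-Delta and parental cells at 0 hours (0.126% of all symbols called, 0.113% higher).

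Between V449E and parental cells at 0 hours 2 members were called, Igf2r and Cd68, both higher (0.934% of all symbols called, 0.583% higher). Cd68 was at -0.05 and 0.07 in V449E cells and -0.89 and -0.88 in parental cells, a difference of 0.89 (SE 0.15, adjusted p = 0.00346) that did not pass without either V449E RNA (adjusted p = 0.174 and 0.0772). The count is the one most open to the way the fit weighs the arrays: with levels weighted by their number of arrays it was 17, of which 16 were higher in V449E cells, and with the pair means 22, of which 19 were higher. The share of all symbols called in those 2 fits was not computed, so these counts cannot be set against the whole array.

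**Figure D4:**
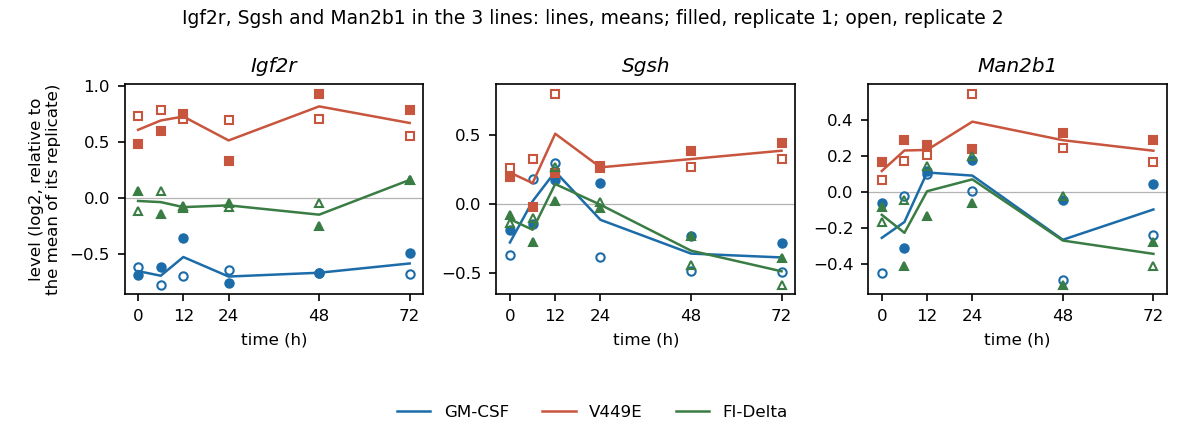
Levels (vertical axis, log2 relative to the mean of the replicate) of Igf2r, Sgsh and Man2b1 against time in hours in the 3 lines, with replicate 1 filled, replicate 2 open and lines through the means. Igf2r lies between 0.33 and 0.93 in V449E cells, -0.25 and 0.16 in FI-Delta cells and -0.78 and -0.36 in parental cells, with no trend in time.

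The study set the 2 mutants side by side at each time, which asks how cells under 1 receptor mutant differ from cells under the other. At 24 hours 1 member was higher in V449E cells and 2 were lower, while 3.80% of all symbols were called, 1.48% higher and 2.32% lower. At 48 hours there were 3 and 6 (9.64% of all symbols, 4.10% higher and 5.54% lower), and at 72 hours 3 and 9 (19.7%, 10.8% and 8.86%). At 72 hours the 12 members are 27.3% of the 44. The median difference of the 44 was -0.115, with 30 of them below 0. In the same comparison 11 of 16 neutrophil markers were lower in V449E cells and none higher (median -1.558), 7 of 18 macrophage markers were lower and 2 higher (median -0.352), and 4 of 11 mast cell and basophil markers were higher and none lower (median 0.185). The part of these in the members' differences was not tested. Lower in V449E than in FI-Delta cells at 72 hours were Ctss, Lgmn, Atp6v1b2, Atp6v1a, Scarb2, Grn, Lamp1, Hexa and Neu1, the neuraminidase that trims sialic acid. For Lamp1 the direction again held for the gene probe (-0.32) and not with the control spots averaged in (0.07). Higher were Sgsh, Man2b1 and Igf2r.

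Atp6v1b2 stood at -0.28 and -0.17 in V449E cells and 0.33 and 0.45 in FI-Delta cells at 72 hours, a difference of -0.61 (SE 0.08, adjusted p = 1.13e-05), the smallest adjusted p of the members. It was also lower at 24 hours (-0.31) and 48 hours (-0.51). Atp6v1a was at -0.20 and -0.17 against 0.37 and 0.36, or -0.55 (SE 0.10, adjusted p = 4.69e-04). Scarb2 was at -0.19 and -0.20 against 0.23 and 0.48, or -0.55 (SE 0.13, adjusted p = 0.00496). Ctss was at 0.22 and 0.17 against 0.74 and 1.04, or -0.70 (SE 0.21, adjusted p = 0.0232). None of these overlapped between the lines. Psap differed by -0.74 (SE 0.31) and did not pass.

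Sgsh, the sulfamidase of heparan sulfate breakdown, stood at 0.45 and 0.33 in V449E cells and -0.39 and -0.59 in FI-Delta cells at 72 hours, a difference of 0.88 (SE 0.17, adjusted p = 6.94e-04). Man2b1, the lysosomal alpha-mannosidase, stood at 0.29 and 0.17 against -0.28 and -0.41, or 0.57 (SE 0.17, adjusted p = 0.0200). Both were also called at 48 hours, at 0.67 and 0.56, and neither had passed against 0 hours in any line. With the arrays scaled to 1 spread the count at 72 hours was 3 instead of 12, and Ctss, Scarb2 and Man2b1 no longer passed. It was 4 to 7 with 1 of the 4 RNAs left out: 4 without V449E 72 hours replicate 1, 6 without its replicate 2, 7 without replicate 1 of FI-Delta at 72 hours and 5 without its replicate 2.

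**Figure D5:**
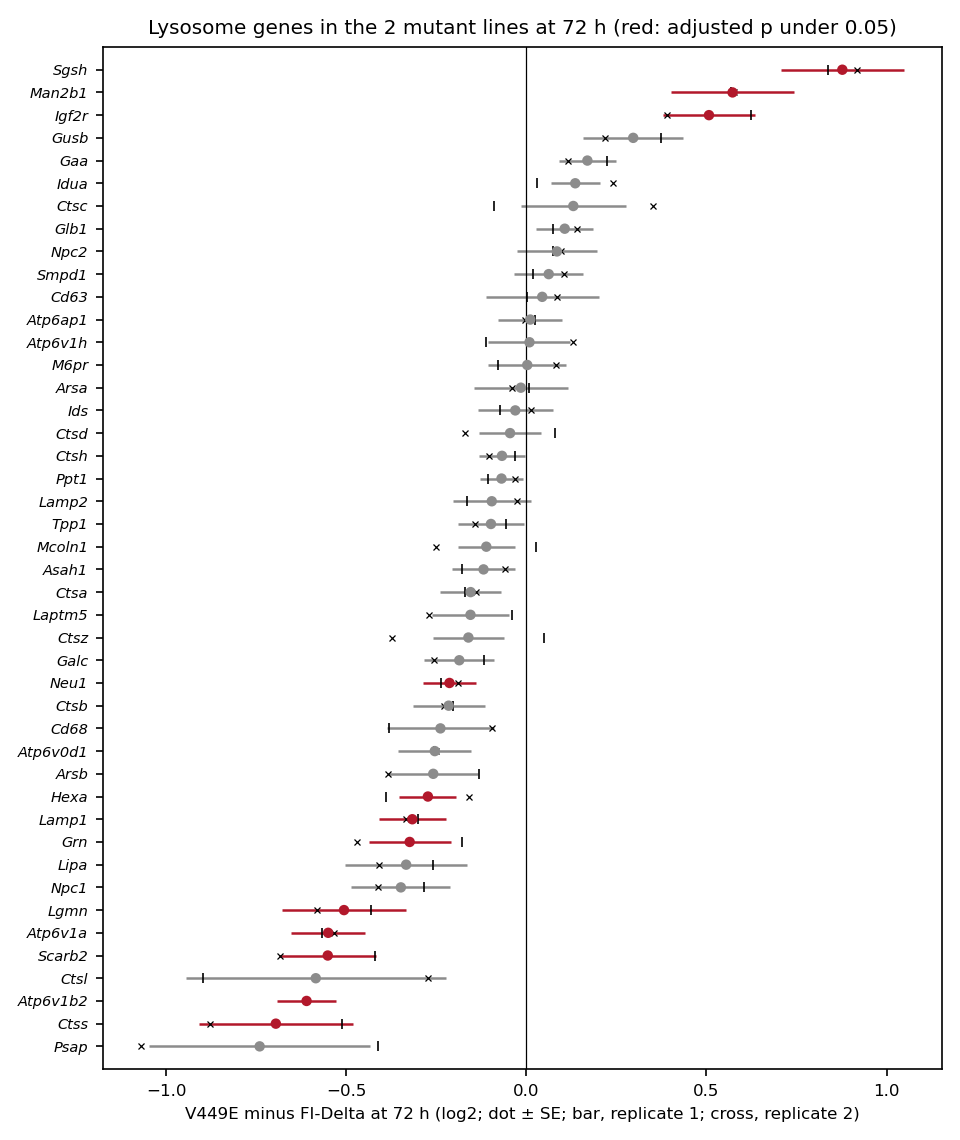
Difference of V449E minus FI-Delta cells at 72 hours (horizontal axis, log2) for the 44 lysosome genes, sorted, with the SE as a line, replicate 1 as a bar and replicate 2 as a cross. Red marks the 12 genes with an adjusted p under 0.05, 3 above 0 (Sgsh, Man2b1 and Igf2r) and 9 below it.

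FI-Delta cells without factor and parental cells in GM-CSF differed in few members. All calls were higher in FI-Delta cells. At 6 hours they were Ctss (1.14), Psap (1.31) and Igf2r (0.66), with 0.702% of all symbols called and 0.576% higher. At 12 hours they were Ctss (0.94) and Psap (1.37), with 0.424% and 0.311%. Igf2r (0.63) was called at 24 hours (0.219% and 0.146%), Lgmn (0.80) at 48 hours (0.397% and 0.265%) and Igf2r again at 72 hours (1.21% and 0.590%). At 72 hours Igf2r was at 0.16 and 0.16 against -0.49 and -0.68, a difference of 0.74 (SE 0.13, adjusted p = 0.00421). That call was lost with arrays of print run 1 alone (0.65) and without GM-CSF 72 hours replicate 2. Print run 1 holds no replicate 2 array of the GM-CSF course. Both checks thus drop that RNA, and the first cannot tell the print run from the RNA.

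Whether the response of a member, its change from 0 hours, differed between 2 lines was tested in the same fit. No member passed at any of the 5 times for any of the 3 pairs of lines. Of all symbols 4.15% passed for V449E against FI-Delta cells at 72 hours and 0.464% at 48 hours, 0.715%, 0.272% and 0.0464% for V449E cells against GM-CSF at 72, 48 and 24 hours, at most 0.00662% for FI-Delta cells against GM-CSF, and none at 6 or 12 hours. The nearest member was Atp6v1b2 at 72 hours in V449E against FI-Delta cells (adjusted p = 0.0570). In that contrast 9 members had an unadjusted p under 0.05 (20.5%, against 18.7% of all symbols). The differences between the mutants at 72 hours are therefore shown for the levels and not for the changes from 0 hours.

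In the start regions of these genes the letters CACGTG are of interest, because the factors TFEB, TFE3 and MITF are known to bind lysosomal gene promoters at such an element, extended as TCACGTG. Since the element is already known from such promoters, an excess of it in a list of lysosome genes is no result of these data. RefSeq windows of 300 bases (250 before to 50 after the start, build GRCm38.p6) were at hand for 37 of the 44 measured members. On either strand CACGTG, which reads the same on both, was in the windows of 13 members (35.1%), against 8.09% of 27025 symbols. TCACGTG or its reverse CACGTGA, which contain the first motif, were in 12 (32.4%, against 4.29%), and TCACGTGA, which contains both, in 6 (16.2%, against 1.12%). The 12 are Ctsd, Ctsa, Lgmn, Gaa, Glb1, Arsa, Sgsh, Lamp1, Mcoln1, Atp6v0d1, Atp6v1a and Igf2r. Stretches of 80 bases before the start are shown for 6 of them, since they cover members that rose, that differed between lines and that stayed flat. Each is read 5′ to 3′ on the gene's strand, with CACGTG in capitals.
Lamp1, chr8:13159081-13159160, plus strand: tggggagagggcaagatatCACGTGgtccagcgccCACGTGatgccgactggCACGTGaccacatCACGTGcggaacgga
Mcoln1, chr8:3500439-3500518, plus strand: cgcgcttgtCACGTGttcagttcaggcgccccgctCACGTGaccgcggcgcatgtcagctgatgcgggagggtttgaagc
Igf2r, chr17:12769707-12769786, minus strand: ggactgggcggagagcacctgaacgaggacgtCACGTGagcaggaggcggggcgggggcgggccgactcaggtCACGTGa
Ctsa, chr2:164833693-164833772, plus strand: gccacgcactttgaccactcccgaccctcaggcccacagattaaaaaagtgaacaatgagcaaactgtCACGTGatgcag
Atp6v1a, chr16:44139340-44139419, minus strand: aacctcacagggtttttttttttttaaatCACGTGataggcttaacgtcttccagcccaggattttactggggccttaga
Ctsd, chr7:142387888-142387967, minus strand: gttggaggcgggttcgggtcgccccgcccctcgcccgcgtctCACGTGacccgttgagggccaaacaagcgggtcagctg

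Lamp1 holds 4 copies in this stretch, Mcoln1 and Igf2r hold 2, and the others 1. The stretches of Atp6v1a and Ctsd lie further from the start (bases 160 to 81 and 140 to 61 before it), and that of Ctsa precedes the second of its RefSeq starts. Whether the motif goes with how the members moved was not tested. At 72 hours in FI-Delta cells 7.85% of all symbols were called higher. Of the 12 members with TCACGTG or CACGTGA, 5 were called higher there (median 0.137), and of the 25 without, 10 (median 0.190). The 5 are Ctsa, Lgmn, Atp6v0d1, Atp6v1a and, by its gene probe, Lamp1. Ctsd, with the motif, was flat over the 18 conditions, and the windows of Psap, Ctss, Lipa, Cd68, Grn and Scarb2 did not hold CACGTG. A match describes the sequence and does not show that a factor binds, and a window without one says nothing of sites elsewhere.

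Lists of other lysosome genes are given for 72 hours in GM-CSF and in FI-Delta cells, where 7.23% and 18.5% of all symbols were called in either direction. Called higher were 3.82% and 7.85% of all symbols. Of 10 other measured proton pump genes 3 rose at 72 hours in GM-CSF and 3 in FI-Delta cells, with all 10 above 0 in both (30.0% called in each). Atp6v1e1, a stalk subunit, was at 0.65 (SE 0.11) and 0.55 (SE 0.11). Between the mutants at 72 hours 5 of the 10 were lower in V449E cells and none higher (50% called, against 19.7% of all symbols). Of 25 other hydrolases 4 and 3 rose and none fell, or 16% and 12% called. The 12% lies below the share of all symbols called in either direction and above the share called higher. Among the hydrolases that rose were Acp2, the lysosomal acid phosphatase (0.41 and 0.30, SE 0.08), and Gla, the alpha-galactosidase (0.29 and 0.35, SE 0.08). The medians of this list were 0.043 and 0.030, against 0.003 and -0.003 for all symbols.

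Of 17 other lysosomal membrane genes 2 rose and 1 fell in GM-CSF, and 7 rose and 1 fell in FI-Delta cells (17.6% and 47.1% called). Slc11a1, the metal transporter NRAMP1 of phagocyte lysosomes, rose by 1.04 (SE 0.18) and 0.54 (SE 0.18), and Abca2, a lipid transporter, fell by 0.41 and by 0.47 (SE 0.08). Of 21 sorting and biogenesis genes 2 rose in GM-CSF, and 3 rose and 1 fell in FI-Delta cells. These are 9.52% and 19.0% called, close to the shares of all symbols called in either direction. The GM-CSF calls were all rises, against 3.82% of all symbols called higher. Sort1, which encodes the sorting receptor sortilin, rose by 0.47 and 0.82 (SE 0.12), and Gnptab, a subunit of the enzyme that adds the mannose 6-phosphate tag, fell by 0.43 (SE 0.08) in FI-Delta cells.

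Of 12 genes listed as lysosome regulators 2 rose in GM-CSF, Tfec and Lamtor1, and 3 in FI-Delta cells, these and Lamtor2. None fell (16.7% and 25% called). Tfec, a macrophage relative of TFEB, rose by 0.70 (SE 0.10, adjusted p = 2.01e-04) in GM-CSF and 0.43 (SE 0.10, adjusted p = 0.00479) in FI-Delta cells. Tfeb (0.12 and 0.22), Tfe3 (0.20 and 0.16) and Mitf (0.12 and 0.11) did not pass, with SEs of 0.08 to 0.10. Of 7 inhibitors of cysteine proteases, the natural blockers of cathepsins, 4 rose in GM-CSF, and 3 rose and 1 fell in FI-Delta cells (57.1% called in each). Stfa3, a stefin, rose by 2.39 (SE 0.40) and 1.24 (SE 0.40), and Cstb, which encodes stefin B, by 0.91 (SE 0.14) in GM-CSF. Of 16 autophagy genes 2 and 4 rose and none fell (12.5% and 25% called), with Atg7, an enzyme of autophagosome formation, at 0.39 and 0.61 (SE 0.10).

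Marker lists of blood cell types are set beside the lysosome genes for the same comparisons. Of 18 measured macrophage markers 10 rose at 72 hours in GM-CSF (median 0.480) and 6 in FI-Delta cells (median 0.407), 55.6% and 33.3% called. In V449E cells 1 rose at 24 hours (median 0.139) and none at 72 hours (median 0.051), when 1.50% and 0% of all symbols were called. For every list here, the absence of calls at 72 hours in V449E cells is that of the whole array. Of 16 neutrophil markers 3 and 6 rose at 72 hours in GM-CSF and FI-Delta cells and none fell (18.8% and 37.5% called), and none was called in V449E cells at 24 or 72 hours. Of 11 mast cell and basophil markers 4 fell at 72 hours in GM-CSF and 4 in FI-Delta cells, (36.4% called in each), and none in V449E cells at 24 or 72 hours. Of 11 lymphoid markers 1 fell at 72 hours in GM-CSF, 1 rose in FI-Delta cells and 1 rose at 24 hours in V449E cells, and of 9 erythroid and megakaryocyte markers 1 rose and 2 fell in GM-CSF, and 1 rose and 1 fell in FI-Delta cells. Between V449E and parental cells at 0 hours 4 neutrophil markers were lower in V449E cells (25% called, against 0.934% of all symbols), and 1 macrophage marker and 1 mast cell marker were higher. The part of these in the differences of the lysosome genes was not tested.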

How the data were processed

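The deposited values are 1 matrix of log ratios from 116 arrays (58 dye-swap pairs, 28 comparisons of 2 conditions) on 2 print runs of 90 and 26 arrays. Per the labels the authors normalised each array and then put all spots in 1 order, and per the submitters' processing notes limma was used (version not given). The values were read as log2 of Cy5 over Cy3: neither base nor direction is stated by the authors in the deposited file, and this reading is likely from limma's convention and from Cy5 being channel 1 in the labels. How background and dye bias were handled is not given in the sources used here, and without intensities the signal over background is unknown. The number of arrays, 8 to 32 a condition, limits the precision. Array medians lay between -0.016 and 0.011. All 58 dye-swap pairs correlated negatively over probes (r from -0.653 to -0.0327). No 2 arrays sharing an RNA in 1 dye had an r below -0.3 (lowest -0.194), and no 2 columns were identical. Every replicate 2 array of the GM-CSF course and of FI-Delta against GM-CSF is of print run 2.

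Of 23040 probes 1243 controls were left out. Of the 21797 left, 16651 had 1 symbol, 137 several and 5009 none. Symbols were updated through Entrez identifiers. Dye-swap pairs were averaged, and least squares within each replicate number gave each RNA a level. Tests were made on the 36 levels in limma 3.58.1 under R 4.3.3 (functions lmFit and eBayes), with condition and replicate number as terms (17 residual and 5.57 prior degrees of freedom), 2-sided, at an adjusted p of 0.05. Errors that levels share through common arrays were treated as independent. Because arrays hold RNAs of 1 replicate number only and levels are centred within it, the replicate block accounts for that centring. On simulated data with 200 changed symbols of 15097, the fit found 93.5% of changes of 0.5 at 72 hours in GM-CSF, 89.5% in FI-Delta cells and 93.4% at 24 hours in V449E cells, and 100% of changes of 1 in each, with 2.02%, 1.05% and 0.513% false calls. The simulated spread between RNAs was set to 0.5 times the fitted residual spread, with array noise added. The real rates may therefore be lower: Lipa at 0.55 in GM-CSF at 72 hours did not pass.

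The members, gene lists and tests were chosen with earlier results of these data known. Genes given with every replicate value are, in each of 7 comparisons, up to 6 called members with the largest difference and, in each role, the members with the largest and the smallest difference at 72 hours in FI-Delta cells. Others were named after their values were seen, to complete a role or a count. From the other lists at most 3 called genes were taken at 72 hours in GM-CSF and FI-Delta cells. Alternatives were single probes, pair means, scaled arrays, print run 1, weights, no replicate block, platform symbols, leaving out 1 RNA and, added later, the Lamp1 control spots.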

Additional observations from a re-analysis of the deposited data

How the results depend on the processing

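The number of members called depended on the unit of the fit more than on gene names or probes. With the dye-swap pair means the counts were 20 at 72 hours in GM-CSF (12 as reported), 22 at 24 hours (8) and 2 at 72 hours (0) in V449E cells, 8 for FI-Delta against GM-CSF at 72 hours (1) and 22 for V449E against parental cells at 0 hours (2). The cause was not tested, and that fit counts arrays of shared RNAs as independent. For the alternative fits the share of all symbols called was not computed, so their counts cannot be set against the whole array. Print run 1 alone leaves 1 RNA in each GM-CSF condition. With levels weighted by arrays they were 13 at 24 hours in V449E cells and 17 for V449E against parental cells, with print run 1 alone 13 and, for FI-Delta against GM-CSF, 0, and with scaled arrays 3 for V449E against FI-Delta at 72 hours (12). With 1 RNA left out the counts ran from 5 to 12 in GM-CSF at 72 hours, 7 to 16 in FI-Delta cells at 72 hours, 1 to 3 and 0 to 0 in V449E cells at 24 and 72 hours, 4 to 7 between the mutants, 0 to 3 for FI-Delta against GM-CSF and 1 to 2 for V449E against parental cells, and the lone RNA left in a condition was assumed to vary like the others. Without the replicate block the counts were 14 at 72 hours in GM-CSF, 18 in FI-Delta cells, 10 at 24 hours in V449E cells and 3 for V449E against parental cells, none moved by over 1.5 times. Platform symbols, single probes and the Lamp1 control spots moved no count by more than that either. The tally that follows covers 35 values of members named by the rule, and Lamp1 is not among them. It pools the alternative fits with the leaving out of 1 RNA, so its total hides that calls were lost mostly in the latter. It also includes members picked as nearest to 0, which were not called and could not fall short. With its control spots averaged in, Lamp1 went from -0.32 to 0.07 between the mutants at 72 hours. In FI-Delta cells at 72 hours against 0 hours it went from 0.43 to -0.005. A change of sign by less than 1 SE in a value that was not called counts as kept. Of the values of named members, 375 kept their side of the threshold, 43 fell short of it with the same direction (36 with 1 RNA left out), 2 of Idua moved and none reversed.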
